A study of Homo sapiens with 6 samples.

Results

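Store-operated calcium entry is the route by which a cell refills its endoplasmic reticulum (ER) with calcium. CRACR2B, CRACR2A, STIM1, STIM2, ORAI1, ORAI2, ORAI3 and SARAF encode its sensors, channels and regulators, and their RNA was followed in HK-2 cells. The 8 genes were chosen as CRACR2B, which was among the largest rises after cisplatin, plus 7 genes taken for their role in the same pathway, and they are 8 of the 28565 genes in the count table. Because CRACR2B was picked by its own change between the times compared here, its values are a description and carry no test.

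HK-2 is an established human line of kidney proximal tubule epithelium, immortalised with viral oncogenes, and 6 RNA-seq libraries of it were compared. The group at 24 h (OE_LncR2_24h, 3 libraries) had been exposed to cisplatin, a platinum drug that crosslinks DNA, for 24 h, and the group at 0 h (OE_LncR2_0h, 3 libraries) is labelled as exposed for 0 h. Both groups had been transfected with a plasmid that overexpresses a long noncoding RNA, named LncR2 in the titles, so the comparison describes cisplatin in cells that carry the plasmid and says nothing of the plasmid's own effect. Cells without it were not analysed here, and the effect of the drug and of the time that passed with it cannot be told apart. The treatment protocol names 48 h after transfection. It is not stated whether both groups were taken at the same time after transfection, so that time may differ between them too.

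When ER calcium falls, STIM proteins, which sense it through an EF-hand (a calcium-binding fold) inside the ER, cluster where the ER touches the plasma membrane and open ORAI channels there. CRACR2A and its paralogue CRACR2B are cytosolic EF-hand proteins that bind ORAI and STIM and stabilise that contact at low cytosolic calcium. SARAF is an ER membrane protein that slows and limits the entry. In kidney tubule cells, as in most cells, this entry follows receptors that make the messenger IP3.

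The 24 h libraries held 6022268 to 7248754 counts and the 0 h libraries 5028881 to 5844246. The library 0 h replicate 3 lay far from the rest in a principal component analysis (second component -30.4, with the others from -5.27 to 15.9). On the first component (39.3% of the variance, the second 27.7%) this library was at 1.28. There the other 0 h libraries were at -23.8 and -24.5 and the 24 h libraries at 6.29, 17.8 and 22.9, so it lay nearer to the 24 h group. Without it, 4.18% of genes rose and 6.72% fell in the fit described below, which with all libraries called 2.94%, so the members' values without it are given too. Of 15 tubule epithelial genes, 9 were tested and 0 were called, with summed levels of 1300 to 1420 CPM (counts scaled to a common library size) at 24 h and 1330 to 1420 at 0 h. The mature proximal tubule genes AQP1, SLC34A1 and CUBN averaged 0.0433, 0.05 and 0.03 FPKM (reads scaled by gene length and library size) at 24 h and 0.0567, 0.0433 and 0.05 at 0 h, so these markers were close to absent. GGT1 of the same list was not, with averages of 12 FPKM at 24 h and 9.29 at 0 h. Leukocyte markers, relevant because this pathway is best known in T cells, summed to 1.24 to 2.14 CPM at 24 h and 1.39 to 2.19 at 0 h, and 4 of the 10 were found in the table. Of these 4, the T cell gene CD3D had 1 count in 24 h replicate 3 and 0 in every other library. Fibroblast markers summed to 16.8 to 20.6 CPM at 24 h and 15.9 to 18.3 at 0 h, and endothelial markers to at most 0.997 and 0.398 CPM.

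Since reads are assigned to genes by sequence, the longest exact runs of coding bases that paralogues share are shown first. They were taken from GENCODE 29 transcripts (GRCh38), 5′ to 3′, with the longest run of coding bases common to both genes in capitals and 15 bases on each side. The pair CRACR2A and CRACR2B shared at most 12 bases in a row, a purine repeat. With its flanks it lies at different coding positions, 1265 to 1306 in CRACR2A and 23 to 64 in CRACR2B.
CRACR2A: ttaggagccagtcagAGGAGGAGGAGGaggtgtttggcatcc
CRACR2B: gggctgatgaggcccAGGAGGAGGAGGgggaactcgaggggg
STIM1 and STIM2 shared at most 14 bases.
STIM1: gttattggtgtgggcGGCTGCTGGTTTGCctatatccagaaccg
STIM2: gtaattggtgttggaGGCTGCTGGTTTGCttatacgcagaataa
ORAI2 and ORAI3 shared the longest run, 34 bases, which encode part of the first transmembrane segment, the one that lines the pore.
ORAI2: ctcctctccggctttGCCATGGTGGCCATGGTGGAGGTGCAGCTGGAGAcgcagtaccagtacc
ORAI3: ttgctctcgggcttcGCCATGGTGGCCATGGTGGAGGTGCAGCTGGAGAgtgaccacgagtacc
ORAI1 shared 23 bases in a row with ORAI2 and 20 with ORAI3. All of these runs are shorter than the 150-base reads named in the labels, although untranslated parts were not compared. Longer stretches that differ at some bases were not compared either, so how well reads separate the paralogues was not tested. The stretches lie at chr11:828630-828671 (CRACR2B), chr11:4070073-4070116 (STIM1) and chr4:27002264-27002307 (STIM2), each within 1 coding exon on the plus strand. Those at chr7:102439161-102446555 (ORAI2, plus strand), chr16:30949497-30953227 (ORAI3, plus strand) and chr12:3638420-3641738 (CRACR2A, minus strand) each cross an intron, which is not printed.

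CRACR2B more than doubled on the count scale. It had 52, 58 and 54 counts in the 3 libraries at 24 h, against 19, 13 and 23 counts at 0 h. In CPM scaled by TMM (edgeR's correction of library totals) it was at 8.58, 8.39 and 7.41 at 24 h and at 3.79, 2.55 and 4.06 at 0 h. Every 24 h library was above every 0 h library, with no overlap. The means were 8.13 ± 0.630 CPM at 24 h and 3.47 ± 0.806 CPM at 0 h (SD, n = 3 each), a fold of 2.32, or 1.22 ± 0.24 on the log2 scale (± the standard error of the edgeR model here and below). Of the 13389 genes tested, 5 had a larger positive fold change. The same fit called 116 genes as higher (0.866% of those tested) and 278 as lower (2.08%), and the place of CRACR2B among the rises is how it was chosen. With counts this low, 1 library carries weight. The fold change was 1.04 without 0 h replicate 2, the lowest of the 0 h libraries, and 1.19 without 24 h replicate 2, and in both fits the gene was no longer among the called rises. Without 0 h replicate 3, the library that stood apart, it was 1.35. In bulk RNA, more cells that express a gene and more RNA per cell cannot be told apart.

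**Figure D1:**
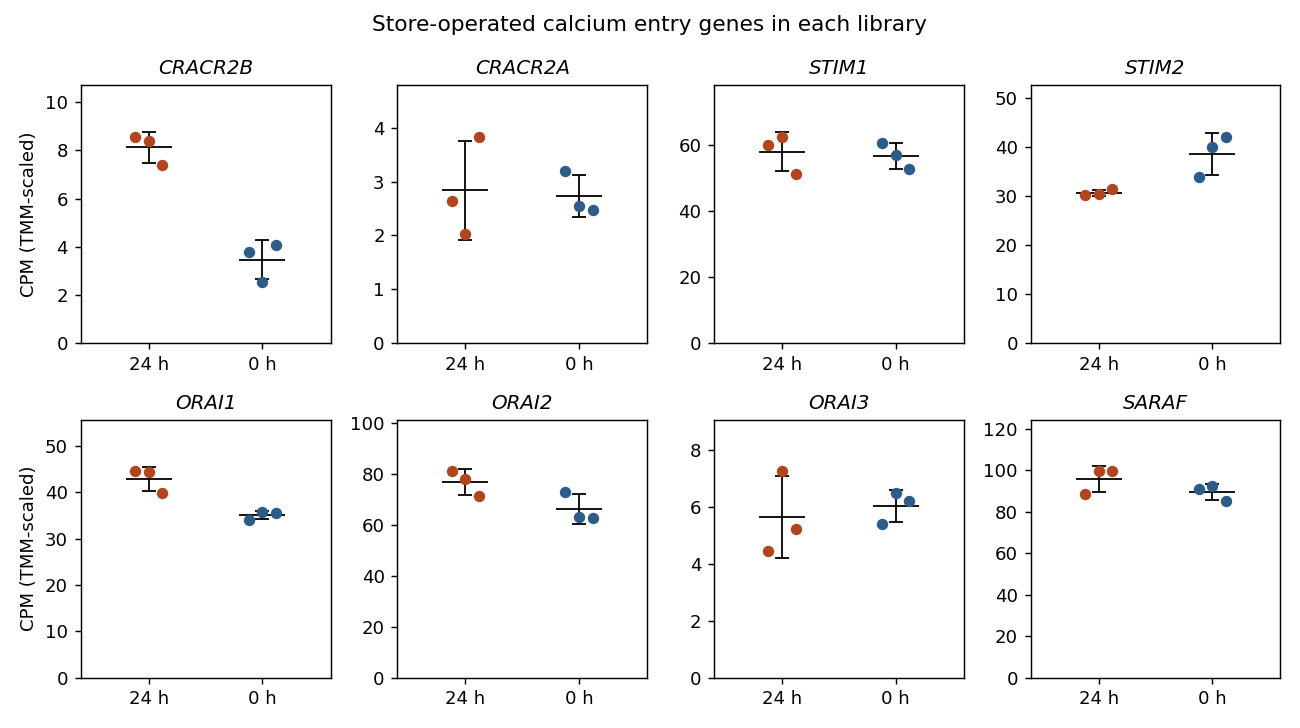
Level of each gene (TMM-scaled CPM, linear axis from 0) in the 3 libraries at 24 h (left in each panel) and the 3 at 0 h (right), with the mean and SD. CRACR2B, chosen by this change, lies between 7.41 and 8.58 CPM at 24 h and between 2.55 and 4.06 at 0 h. In 5 of the 8 panels the groups overlap. Groups without overlap were seen in 10.9% of tested genes with 24 h higher and in 11.7% with 24 h lower.

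CRACR2B (ENSG00000177685.16) lies on the plus strand of chromosome 11 (GENCODE 29 on GRCh38) from 826144 to 831991, a compact gene of 5848 bases with 3913 exonic bases and 14 annotated transcripts. The table holds 1 value per gene, so transcripts could not be separated. An antisense gene, AP006621.8, overlaps it and shares 134 exonic bases. That gene had 1 count over all 24 h libraries and 2 over all 0 h libraries, so few counts were credited to the other strand in either group. Whether counting used strand is not given in the sources used here, and reads of CRACR2B and of its antisense partner may not have been told apart.

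Both neighbours of CRACR2B are transcribed on the same strand, and their groups did not overlap either. PNPLA2, the main triglyceride lipase of fat droplets, ends 571 bases before CRACR2B and had 52.1, 55.4 and 41.3 CPM at 24 h and 39.7, 38.8 and 31.6 CPM at 0 h. Its log2 fold change was 0.44 ± 0.14 (edgeR, p adjusted over all genes = 0.0996). CD151, a tetraspanin of cell adhesion, starts 852 bases after it and had 84.1, 85.8 and 77.8 CPM at 24 h and 67.4, 60.8 and 74.3 CPM at 0 h, a log2 fold change of 0.29 ± 0.11 (edgeR adjusted p = 0.164). In the main fit (TMM, filter on low counts, no covariates, all libraries) neither neighbour passed the test. With the FPKM denominators, a scaling described below that lifts the median gene, both were called as higher, PNPLA2 at 0.67 (edgeR adjusted p = 0.00287) and CD151 at 0.53 (adjusted p = 0.00679), and limma on log2(FPKM + 1) called both too (adjusted p = 0.0194 each). With no filter on low counts PNPLA2 alone was called (0.49, edgeR adjusted p = 0.0206). CPM groups that do not overlap were seen in 10.9% of tested genes with 24 h higher and in 11.7% with 24 h lower. Without 0 h replicate 3, CD151 was called as higher (0.37, edgeR adjusted p = 0.0270) and PNPLA2 was not (0.34, adjusted p = 0.0856). A part of reads from neighbouring transcripts in the CRACR2B count was not tested.

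CRACR2A (ENSG00000130038.9, chr12:3606633-3764819, minus strand), the paralogue whose long form also carries a Rab GTPase domain, was the lowest member and did not pass. It had 16, 14 and 28 counts at 24 h and 16, 13 and 14 counts at 0 h. Its CPM values were 2.64, 2.03 and 3.84 at 24 h and 3.19, 2.55 and 2.47 at 0 h, and the groups overlapped, with 24 h replicate 3 the highest. The log2 fold change was 0.06 ± 0.34 with a 95% interval from -0.65 to 0.78 (edgeR adjusted p = 0.944), an interval wide enough to hold changes of either sign. It was 0.00 without 0 h replicate 3 and -0.24 without 24 h replicate 3. CRACR2B made up 84.6, 87.4 and 76.5% of the summed FPKM of the pair at 24 h and 66.7, 62.7 and 73.4% at 0 h. Those shares do not depend on how libraries were scaled, and every 24 h share was above every 0 h share. They contain the rise for which CRACR2B was chosen and the low counts of CRACR2A, so they are a description and carry no test.

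The calcium sensors did not pass the test. STIM1 (ENSG00000167323.9, chr11:3854527-4093210, plus strand), the main sensor, had 59.9, 62.5 and 51.2 CPM at 24 h and 60.4, 57.0 and 52.6 CPM at 0 h. These groups overlapped, with a log2 fold change of 0.03 ± 0.11 and a 95% interval from -0.21 to 0.27 (edgeR adjusted p = 0.923). STIM2 (ENSG00000109689.14, chr4:26857678-27025381, plus strand), which responds to smaller losses of ER calcium and sets its resting level, had 30.2, 30.5 and 31.4 CPM at 24 h and 33.9, 40 and 42.2 CPM at 0 h. All of its 24 h libraries were below all of its 0 h libraries. Its log2 fold change was -0.33 ± 0.12, with an interval for this gene alone from -0.60 to -0.07, and it missed the threshold after adjustment over all genes (edgeR adjusted p = 0.158). Without 0 h replicate 3, its highest 0 h library, the value was -0.26 (adjusted p = 0.229). STIM1 gave 68.2 ± 2.71% of the summed STIM FPKM at 24 h and 62.6 ± 4.19% at 0 h (SD, n = 3 each), with overlapping libraries and an exact two-sided permutation p = 0.2, where 3 libraries against 3 cannot go below 0.1. The genes annotated within STIM1 and STIM2 had at most 8 counts in any library, so they hold few of the reads there.

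Among the channel subunits, ORAI1 was the most abundant per length. ORAI1 (ENSG00000276045.1, chr12:121626550-121642677, plus strand), the pore subunit of the classical current, had 44.5, 44.3 and 39.9 CPM at 24 h and 34.1, 35.7 and 35.5 CPM at 0 h. All 24 h libraries exceeded all 0 h libraries, with 42.9 ± 2.60 CPM at 24 h against 35.1 ± 0.863 CPM at 0 h (SD, n = 3 each). The log2 fold change was 0.29 ± 0.11, with an interval for this gene alone from 0.05 to 0.53, and it did not pass (edgeR adjusted p = 0.189, and 0.141 without 0 h replicate 3). Of all tested genes, 11.2% had a higher fold change.

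ORAI2 (ENSG00000160991.15, chr7:102433106-102456821, plus strand), a subunit that dampens the current when it joins ORAI1, had 81.0, 78.1 and 71.3 CPM at 24 h and 73.0, 63.1 and 62.7 CPM at 0 h. Its groups overlapped in CPM, because 24 h replicate 3 was below 0 h replicate 1, and the fold change was 0.21 ± 0.11 (95% interval from -0.02 to 0.44, edgeR adjusted p = 0.311). The antisense neighbour ALKBH4 shares 584 exonic bases with ORAI2 and had 6.43 to 8.54 CPM at 24 h and 3.79 to 8.12 CPM at 0 h. ORAI3 (ENSG00000175938.6, chr16:30949066-30956461, plus strand), a subunit restricted to mammals, had 27, 50 and 38 counts at 24 h and 27, 33 and 35 counts at 0 h. Those groups overlapped, with a fold change of -0.09 ± 0.24 (95% interval from -0.61 to 0.43, edgeR adjusted p = 0.888). Its value is uncertain because AC135048.13, a noncoding gene on the same strand with 34 to 41 counts at 24 h and 29 to 35 at 0 h, shares 1397 of the 2643 exonic bases of ORAI3.

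ORAI1 provided 67.9, 65.8 and 67.0% of the summed ORAI FPKM at 24 h and 62.8, 65.1 and 65.4% at 0 h. The libraries did not overlap, and the difference of 2.49 percentage points had an exact two-sided permutation p = 0.1, the smallest that 3 against 3 allows. ORAI2 gave 25.1 ± 0.786% at 24 h and 25.5 ± 2.34% at 0 h, and ORAI3 gave 8.03 ± 1.82% at 24 h and 10.1 ± 0.926% at 0 h (SD, n = 3 each), with overlapping libraries for both.

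SARAF (ENSG00000133872.13, chr8:30063012-30083208, minus strand), the brake of the pathway, had 88.4, 99.3 and 99.4 CPM at 24 h and 90.9, 92.5 and 85.3 CPM at 0 h. The groups overlapped, with a log2 fold change of 0.10 ± 0.10 and a 95% interval from -0.11 to 0.31 (edgeR adjusted p = 0.664, and 0.07 on the log2 scale without 0 h replicate 3). An antisense gene (ENSG00000272256.1), which shares 362 exonic bases, had 0 counts in every 24 h library and at most 2 in a 0 h library. The remaining values without 0 h replicate 3 were 0.18 for ORAI2, -0.06 for ORAI3 and -0.02 for STIM1, and none of the 3 passed. Across CRACR2A and the STIM, ORAI and SARAF genes, 0 of 7 were called in either direction, where 2.94% of all genes were. An unadjusted p under 0.05 was reached by 2 of the 7, ORAI1 and STIM2. The share of all genes that reached it is not given here, so this count cannot be read as an excess. DESeq2 also called 0 of the 7 (0.957% of its genes rose and 1.63% fell), and limma on log2(FPKM + 1) called 1, ORAI1, as higher, where 12.4% of genes rose and 1.03% fell. Their median log2 fold change was 0.06, and that of all tested genes was -0.002.

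The deposited FPKM values, which divide by gene length, give the order of levels between genes. At 24 h it ran from SARAF (29.6 ± 3.81 FPKM) and ORAI1 (12.6 ± 0.660) through STIM1 (8.37 ± 0.806), ORAI2 (4.71 ± 0.182), STIM2 (3.90 ± 0.326) and CRACR2B (2.74 ± 0.147) to ORAI3 (1.53 ± 0.448) and CRACR2A (0.573 ± 0.208; SD, n = 3 each). No neighbours in that order overlapped at 24 h. At 0 h the order was SARAF (23.4 ± 1.12), ORAI1 (8.74 ± 0.266), STIM1 (6.97 ± 0.484), STIM2 (4.16 ± 0.472), ORAI2 (3.45 ± 0.294), ORAI3 (1.37 ± 0.139), CRACR2B (0.993 ± 0.223) and CRACR2A (0.467 ± 0.0643), and only STIM2 and ORAI2 overlapped. CRACR2B thus stood above ORAI3 at 24 h and below it at 0 h. This change of order contains the rise that chose CRACR2B, and the level of ORAI3 is uncertain because of the overlapping AC135048.13. CRACR2B was above 34.5% of tested genes at 24 h and above 16.0% at 0 h, whereas SARAF was above 89.5% and 89.0%.

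**Figure D2:**
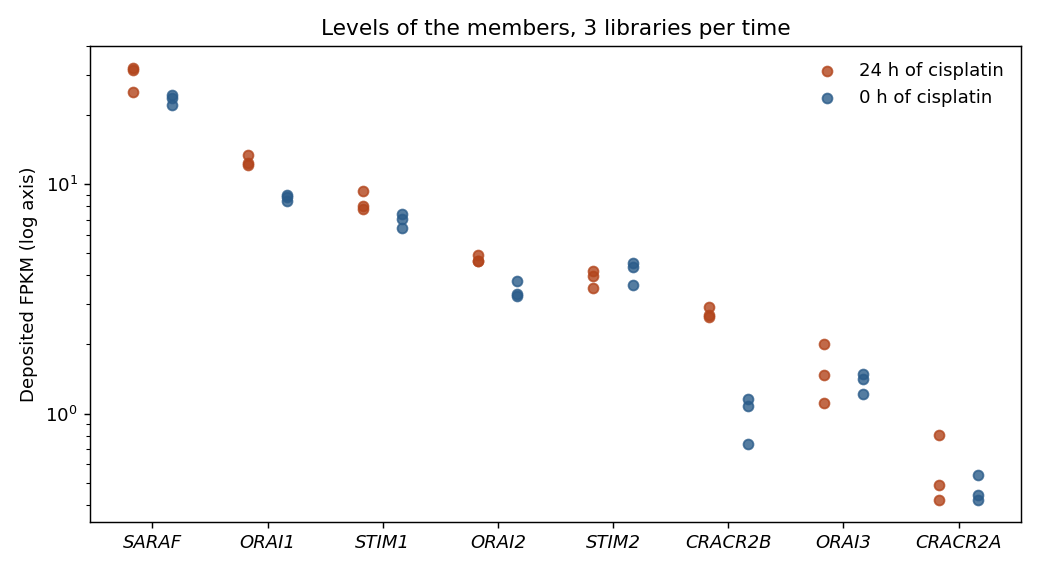
Deposited FPKM of each gene on a log axis, with the 3 libraries at 24 h left of the 3 at 0 h, ordered by the mean over all 6. SARAF is highest at 22.21 to 32.20 FPKM and CRACR2A lowest at 0.42 to 0.81, and CRACR2B is above ORAI3 at 24 h and below it at 0 h. That change of order contains the rise that chose CRACR2B, and the level of ORAI3 is uncertain because another gene overlaps it.

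The size of each change depended on how libraries were scaled. The totals by which the authors scaled FPKM can be recovered from counts and FPKM, and with that scaling the median gene stood 0.24 higher (log2). Under that scaling CRACR2B was at 1.45, which is 1.22 above the median gene, as with TMM. ORAI1 was at 0.53 and ORAI2 at 0.45, and both were called as higher (edgeR adjusted p = 0.0110 and 0.0165), where 17.6% of all genes rose and 1.46% fell. Relative to the shifted median their values were about those with TMM. A change of library scaling moves all genes by about the same amount, so the distance from the median, for CRACR2B too, is no separate result. SARAF was at 0.34 (adjusted p = 0.0609), STIM1 at 0.26 (adjusted p = 0.152), CRACR2A at 0.30 (adjusted p = 0.539) and STIM2 at -0.10 (adjusted p = 0.659), and ORAI3 turned from -0.09 to 0.15 (adjusted p = 0.687). In FPKM itself, 5 of the 8 members had every 24 h library above every 0 h library (CRACR2B, ORAI1, ORAI2, STIM1 and SARAF), and so did 33.3% of all tested genes, while 3.01% had every 24 h library below. In CPM the same held for 2 of the 8, CRACR2B, which was chosen by this change, and ORAI1, where 10.9% of all genes did so. In the other direction 1 member, STIM2, had every 24 h library below every 0 h library in CPM, where 11.7% of all genes did so.

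**Figure D3:**
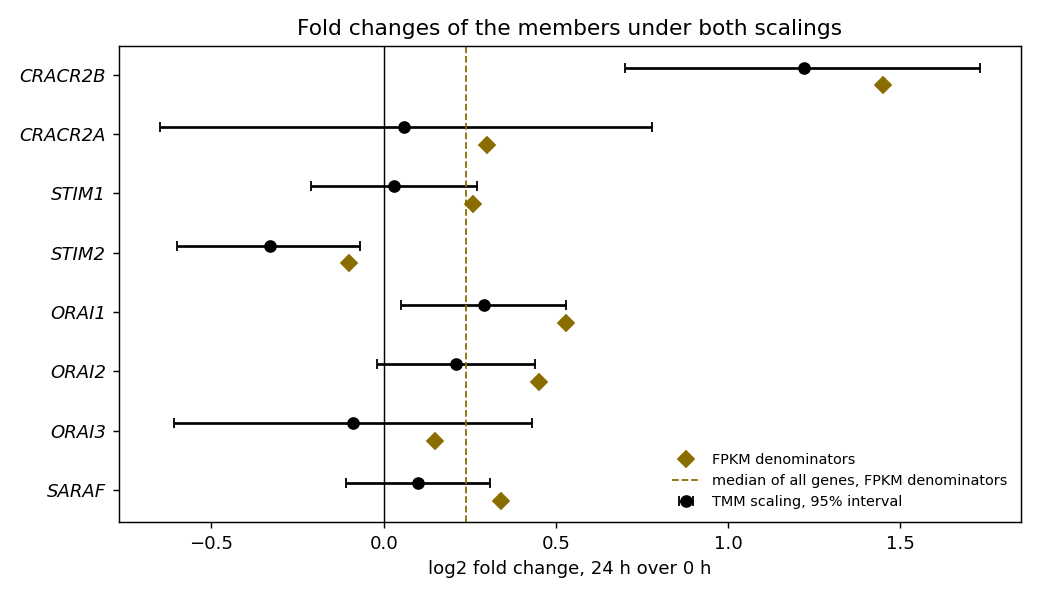
Log2 fold change (24 h over 0 h) of each gene with TMM scaling (circles, 95% interval) and with the FPKM denominators (diamonds), which shift the median of all genes to 0.24 (dashed line). CRACR2B is at 1.22 and 1.45, and the other 7 lie between -0.33 and 0.53.

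**Figure D4:**
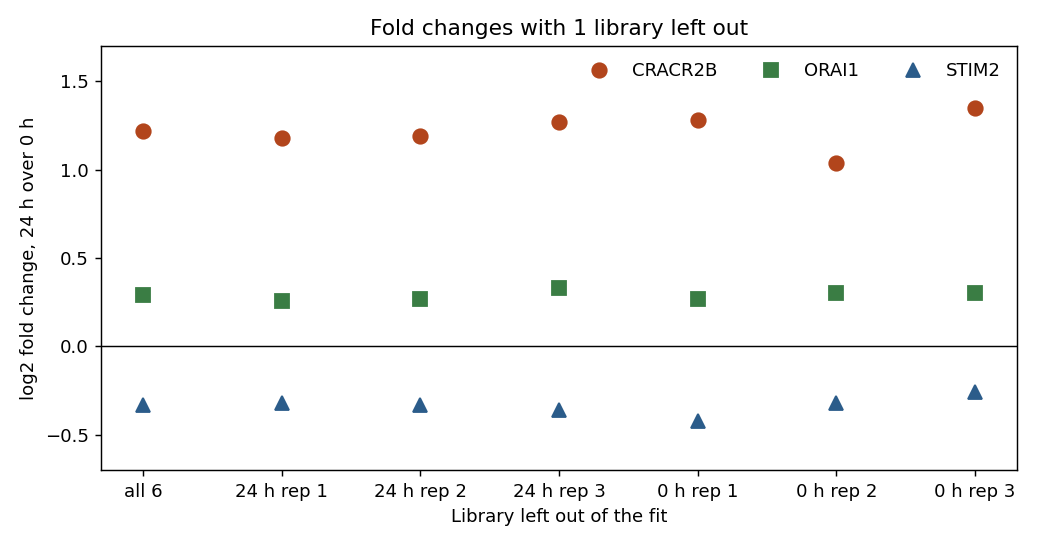
Log2 fold change (24 h over 0 h, TMM) of CRACR2B, ORAI1 and STIM2 in all 6 libraries and with each library left out in turn. CRACR2B ranges from 1.04 to 1.35, ORAI1 from 0.26 to 0.33 and STIM2 from -0.42 to -0.26.

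Other genes of calcium handling were read from 9 lists of pumps, channels, partners and effectors. Leaving out the 8 members, 82 of their 115 genes were tested. By the edgeR test 1 rose and 1 fell, where 0.866% of all genes rose and 2.08% fell, and the median log2 fold change was -0.01. An unadjusted p under 0.05 was reached by 9, again without the share of all genes to set it against. Without 0 h replicate 3, 3 rose and 3 fell, where 4.18% of all genes rose and 6.72% fell. For the single lists below the share to compare is 2.94% of all genes called, so 0 calls in a short list show little. With the FPKM denominators 17.6% of all genes rose. There, 3 of 9 mitochondrial genes, 3 of 10 ER and secretory calcium-binding proteins and 2 of 3 plasma membrane exporters rose. So did 2 of 17 STIM-ORAI partners, 2 of 11 genes upstream of IP3 and 1 of 8 TRP channels, and 0 in the other lists.

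The gene that rose was P2RY6, a receptor for UDP that acts through Gq and phospholipase C to make IP3. It had 8.58, 7.09 and 7.13 CPM at 24 h and 5.38, 2.35 and 3.0 CPM at 0 h, with no overlap and a log2 fold change of 1.09 ± 0.28 (edgeR adjusted p = 0.0477). The call held in 2 of 6 fits with 1 library left out, those without 0 h replicate 1 or 0 h replicate 3, and DESeq2 did not make it (adjusted p = 0.0930). The gene that fell was EFHB, an EF-hand protein of sperm flagella and cilia that also binds STIM1. It had 6.43, 7.24 and 6.72 CPM at 24 h and 9.97, 12.2 and 13.2 CPM at 0 h, a log2 fold change of -0.79 ± 0.19 (edgeR adjusted p = 0.0341). Its call too held in 2 of 6 such fits, those without 0 h replicate 1 or 0 h replicate 3, and was not made by DESeq2 (adjusted p = 0.120). With the FPKM denominators EFHB was at -0.56 (edgeR adjusted p = 0.0603), and limma on log2(FPKM + 1) gave an adjusted p = 0.0632, so this call was lost there as well. Under both of those settings P2RY6 kept its call (adjusted p = 0.00199 and 0.0112), and 13 and 6 of the 82 list genes rose while 0 fell. Of all genes, 17.6% rose and 1.46% fell with the FPKM denominators, and 12.4% rose and 1.03% fell by limma.

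Genes that move calcium into and out of the ER did not pass, with 0 of 9 called and a median of -0.13. ATP2A2, the SERCA pump that refills the ER, was at 0.02 ± 0.10 on the log2 scale (48.3 ± 0.443 FPKM at 24 h and 40.4 ± 3.53 at 0 h), and ITPR3, an IP3 receptor channel, was at -0.13 ± 0.13. Among 17 tested partners of STIM and ORAI and proteins of ER contact sites, EFHB was the one called. UBQLN1, a ubiquitin shuttle that binds ORAI1, was at 0.23 ± 0.10 (edgeR adjusted p = 0.236) and CAV1, the scaffold of caveolae, at 0.19 ± 0.11.

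Of the TRP channels 8 of 18 were tested and 0 were called, with a median of -0.23. The most abundant were TRPM7, a channel fused to a kinase (-0.20 ± 0.10), and TRPC1 (0.01 ± 0.13). Of the plasma membrane exporters 3 of 7 were tested and 0 were called. The calcium pump ATP2B4 had 204, 174 and 176 CPM at 24 h and 158, 153 and 131 CPM at 0 h, with no overlap, and its fold change of 0.32 ± 0.11 did not pass (edgeR adjusted p = 0.117). ATP2B1, the other abundant pump, was at 0.15 ± 0.11.

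All 9 genes of mitochondrial calcium handling were tested and 0 were called, with MCU, the uniporter pore, at 0.25 ± 0.11 (edgeR adjusted p = 0.243). In the list of calmodulin, calcineurin and NFAT, the branch that turns calcium entry into transcription, 0 of 14 were called and the values ran from -0.28 to 0.17. CALM2 and CALM3, both calmodulin genes, were at 0.09 ± 0.13 and 0.07 ± 0.10. RCAN1, a feedback inhibitor of calcineurin and a known NFAT target, was at -0.24 ± 0.19 (adjusted p = 0.552).

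Upstream of IP3, P2RY6 was the one called among 11 tested genes. PLCB4, a phospholipase C, was at -0.06 ± 0.10 and the G protein GNA11 at 0.14 ± 0.12. PLCG2, a phospholipase C of immune receptors, had 11.2, 13.3 and 13.2 CPM at 24 h and 19.3, 19.8 and 17.3 CPM at 0 h and came close to the threshold without passing (-0.58 ± 0.15, edgeR adjusted p = 0.0572). Among the calcium-binding proteins of the ER and secretory route 0 of 10 were called, with CALR, the main ER calcium buffer, at 0.02 ± 0.10 and the chaperone HSP90B1 at -0.02 ± 0.12. RASEF, like CRACR2A a Rab GTPase with EF-hands, was at -0.08 ± 0.10.

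**Figure D5:**
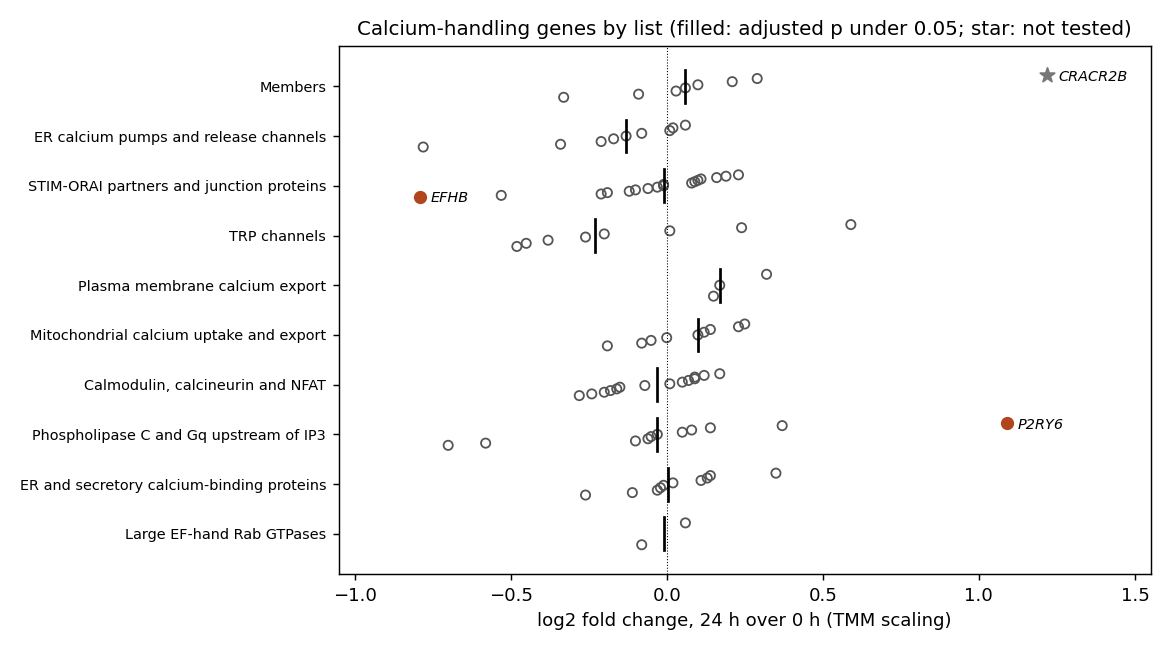
Log2 fold change (24 h over 0 h, TMM) of each tested gene in the member set and the 9 lists. Bars mark medians (without CRACR2B in the first row), filled points passed the edgeR test, and the star is CRACR2B, which carries no test. P2RY6 at 1.09 and EFHB at -0.79 are the only filled points.

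The genes whose profile over the 6 libraries was nearest to that of CRACR2B were sought among tested genes with at least 5 CPM, by the root mean square difference of centred log2 CPM. MAPK8IP2, a scaffold of JNK signalling, was nearest at 0.104 and had 45.5, 46.6 and 39.1 CPM at 24 h and 23.5, 16.9 and 21.0 CPM at 0 h. CXCL3, a chemokine for neutrophils, followed at 0.106, with 9.73, 8.97 and 8.91 CPM at 24 h and 4.19, 3.53 and 4.77 CPM at 0 h. Like CRACR2B, both were lowest in 0 h replicate 2. MRPS17 of the mitochondrial ribosome (0.240), CHMP1B of the ESCRT membrane machinery (0.249) and TREX1, a DNA exonuclease (0.253), came next. With log2(FPKM + 1) in place of CPM, 2 of these 5, CXCL3 and CHMP1B, were among the nearest. This likeness rests on 6 libraries in 2 groups and on the change that chose CRACR2B.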

How the data were processed

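Reads were made from rRNA-depleted total RNA as directional paired-end libraries, per the labels' protocols. The tools bcl2fastq, TopHat2 and edgeR and the build GRCh38 are named per the submitters' processing notes, while tool versions, counter, gene annotation and strand setting were not given in the sources used here. The deposited counts are whole reads per gene, and the deposited FPKM values were scaled by the authors and cover 28561 genes. Their relative denominators were recovered from 3572 genes with over 300 counts in every library. Identifiers were matched to GENCODE 29 (97.8% matched), and 3 members carry an older version in the files than there (ORAI1, STIM1 and STIM2).

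The members and lists were chosen with earlier results of these data known. Libraries at 24 h and 0 h were compared by edgeR 4.0.16 (quasi-likelihood, TMM, filterByExpr, no covariates, limma 3.58.1, R 4.3.3), with Benjamini-Hochberg adjustment over 13389 genes and a call at adjusted p under 0.05. Levels are means ± SD. Named were all members, called and the 2 most abundant genes of each list, the 5 nearest profiles, and neighbours or overlapping genes. One gene under this rule is not reported here. PLCG2, RCAN1, CD3D, AQP1, SLC34A1, CUBN and GGT1 were named after their values were seen. Alternatives included other scalings, filters, DESeq2 1.42.0, limma on log2(FPKM + 1), a replicate block and leaving out libraries. The fit was tested on simulated data with 1 dispersion for all genes and no library that stood apart. It called 0.1% of unchanged genes, 90% of those with a true log2 change of 1 and 80% at -1. This does not show how the fit performs with a library such as 0 h replicate 3.

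No label states that the libraries within a group are separate cultures (the design text has 2 biological replicates, the labels 3 libraries), so p-values measure only the spread between these libraries. No 2 libraries of a group agreed within sampling noise. Counting error dominates in low genes.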

Additional observations from a re-analysis of the deposited data

How the results depend on the processing

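The 394 calls over all genes became 2549 with the FPKM denominators, 1795 and 1768 by limma on log2(FPKM + 1) and log2(FPKM + 0.1), 740 with no filter, 845 without both libraries numbered 3, 2 without both libraries numbered 2 (an alternative chosen after seeing the data) and 113 to 1497 with 1 library left out (127 without 0 h replicate 2, 1497 without 0 h replicate 3, and 262, 113 and 186 without 24 h replicates 1, 2 and 3). The split of calls moved with them: rises were 29.4% with TMM, 92.3% with the FPKM denominators and 46.6% with no filter. The 2 calls in the calcium lists (1 rise and 1 fall) became 13 rises and 0 falls with the FPKM denominators and 6 rises and 0 falls by limma on either FPKM scale, where EFHB was lost, 1 with upper-quartile or total-count scaling, where P2RY6 was lost, 1 other gene without both libraries numbered 3, where P2RY6 (edgeR adjusted p = 0.0595) and EFHB (0.0778) were lost, 0 by DESeq2 and without both libraries numbered 2, and 0 to 6 with 1 library left out. Of all genes, 17.6% rose and 1.46% fell with the FPKM denominators, and 12.4% rose and 1.03% fell by limma on log2(FPKM + 1). Over 19 alternatives the log2 fold change of CRACR2B stayed between 0.91 (limma on log2(FPKM + 1), where the pseudocount compresses low genes) and 1.45, and leaving out 1 library gave 1.04 to 1.35. It was 1.02 without both libraries numbered 2, a fit that called 0 rises over all genes. ORAI1 was called with the FPKM denominators (0.53) and by limma with either pseudocount (0.48 and 0.52), and ORAI2 with the FPKM denominators (0.45). ORAI3 changed sign with the FPKM denominators (0.15), by limma (0.08 and 0.11) and when single libraries were left out (-0.31 to 0.05). STIM1 ran from -0.03 to 0.11 with 1 library left out and was -0.03 without both libraries numbered 2. CRACR2A ran from -0.24 to 0.26 with 1 library left out and was -0.31 without both libraries numbered 3, all without a call, and the cause of these turns was not tested. Same-numbered libraries deviated together in 2 of 3 pairs (correlations 0.24, -0.02 and 0.42). Differently numbered ones had correlations from -0.37 to 0.23. So few libraries cannot settle whether the numbers pair the samples, and the main fit used no block. With the replicate number as a block 1698 of 13389 genes and 7 of 82 list genes were called. STIM2 (-0.33, edgeR adjusted p = 0.0422) passed in that fit, as did the neighbours PNPLA2 (0.43, adjusted p = 0.00564) and CD151 (0.29, adjusted p = 0.0368). Without both libraries numbered 3 the neighbours passed too (adjusted p = 0.0262 and 0.0247). Depth limits CRACR2A, CRACR2B and ORAI3, with at most 58 counts per library.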
